A study of Mus musculus with 12 samples.

Results

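Peg10 and 8 other genes that are imprinted in the mouse were described in cultured oral carcinoma cells, over 4 groups that crossed paclitaxel with the ability to release extracellular vesicles (EVs). Peg10 was chosen by its large interaction, the difference of its response to paclitaxel between the EV labels in these same libraries, so its values are given as a description, without a test. Sgce was taken as its neighbour, and Peg3, Mest, H19, Igf2, Plagl1, Grb10 and Ndn as imprinted genes for comparison. The 9 genes were found by symbol among the 55421 genes of the table. Of these 9 genes, 7 passed the filter on low counts that left 18108 genes for testing, while Igf2 and Ndn did not.

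The cells were derivatives of MOC2, a mouse oral squamous cell carcinoma line. One derivative, MOC2-25, was labelled EV-proficient, and another, MOC2-27, was labelled EV-deficient. The series text states a genetic block of vesicle release without naming the gene. Cells received DMSO, or 600 nM of paclitaxel, a microtubule-stabilising drug used here to induce senescence, for 48 h, and 3 libraries of polyadenylated RNA were sequenced in each of the 4 groups. Since there was 1 derivative for each label, vesicle release and other ways in which the derivatives differ cannot be told apart. The replicates are numbered in the labels without a statement that they came from separate cultures, so p-values measure only the spread between these libraries.

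Imprinted genes are transcribed mainly from the copy inherited from 1 parent. DNA methylation laid down in the germ line usually marks the copy from 1 parent, which can be the silent or the expressed one. Many of them regulate growth of the embryo and placenta, and several are shut down in adult tissues and transcribed again in tumours. Peg10 is a paternally expressed gene derived from a retrotransposon, which still encodes a Gag-like protein and is needed to form the placenta. Its protein can be shed from cells in capsid-like particles. Sgce, which encodes the membrane protein epsilon-sarcoglycan, is paternally expressed too and is transcribed away from Peg10 from an adjoining start. H19 is a maternally expressed long noncoding RNA that shares enhancers with Igf2, the paternally expressed growth factor next to it.

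Libraries held 23263472 to 62955757 counts, and levels are given as CPM (read counts relative to the library total) on library sizes scaled by trimmed mean of M values. Across all 18108 tested genes, the difference between the EV labels had opposite signs under DMSO and under paclitaxel in 67.0% of genes. Of the 2834 genes past the threshold in both of these comparisons (15.7% of all tested genes), 2722 had opposite signs (15.0% of all tested genes). A row the authors added to the table for a dngfr sequence crossed in the same manner, with means of 8.99 ± 3.23 CPM (SD, n = 3) with DMSO and 3.24 ± 0.683 with paclitaxel in EV-proficient cells, and 2.15 ± 0.349 with DMSO and 10.9 ± 1.42 with paclitaxel in EV-deficient cells. Groups are named by their labels throughout, and whether any label is interchanged was not tested. The vesicle release genes Rab27a and Rab27b had group means of 4.65 to 5.21 and 48.5 to 56.6 CPM under both labels. Epithelial genes were abundant (8 listed markers summed to 3020 to 5820 CPM per library), with group means of 80.0 to 681.0 CPM for Krt14 and 2.48 to 318.0 for Krt6a, while the basal squamous genes Krt5 and Trp63 stayed at or below 0.18 CPM. The 8 fibroblast markers summed to 1.68 to 3.6 CPM with DMSO and 5.58 to 8.99 CPM with paclitaxel, and the 4 endothelial markers to 1.77 to 4.35 CPM. The 6 immune markers summed to 7.38 to 8.52 CPM in EV-proficient cells with DMSO and 20.9 to 46.9 CPM elsewhere, mainly from Cd68 and Csf1r, while the T cell gene Cd3e was at or below 0.0439 CPM. The 6 placental markers summed to 154.0 to 439.0 CPM, nearly all from the prolactin family gene Prl2c2, and Synb, a syncytin gene, was at 0 throughout. The part of these markers in the results was not tested.

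Peg10 (ENSMUSG00000092035, chr6:4747306-4760517 on the plus strand of GRCm38) was low in EV-proficient cells under DMSO and high after paclitaxel, and in EV-deficient cells the order was the opposite. In EV-proficient DMSO libraries it had 1.39, 1.56 and 0.966 CPM, from 57, 65 and 33 counts. In EV-proficient paclitaxel libraries it had 17.7, 16.1 and 18.7 CPM. In EV-deficient DMSO libraries it had 20.8, 20.1 and 19.8 CPM, its highest values. In EV-deficient paclitaxel libraries it had 2.22, 1.02 and 2.25 CPM. The EV-deficient DMSO libraries lay somewhat above the EV-proficient paclitaxel libraries, and the values of the low groups overlapped. In bulk RNA, fewer cells with the transcript and less transcript per cell cannot be told apart.

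**Figure D1:**
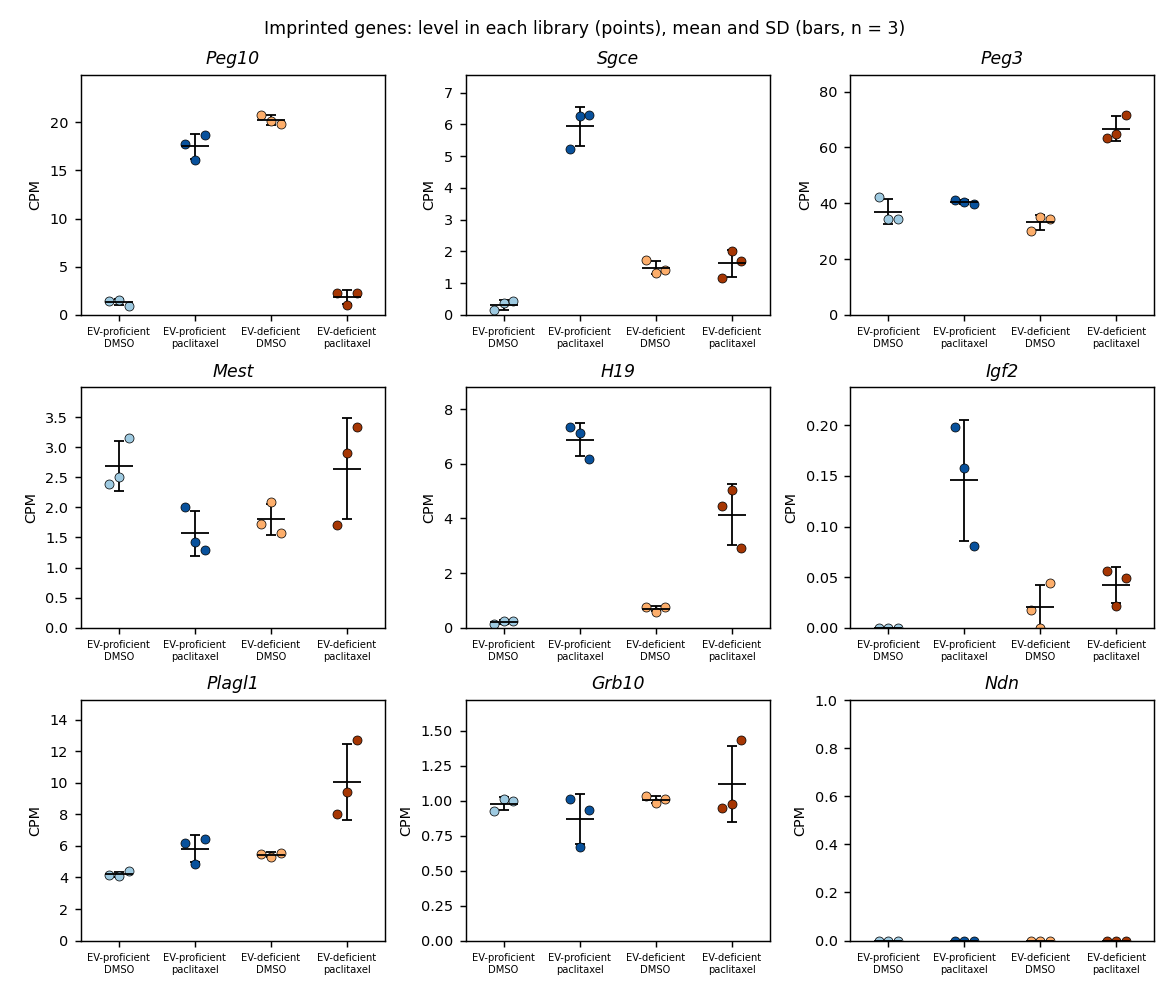
Level of each of the 9 imprinted genes in CPM (vertical axes, each from 0) in the 12 libraries. Points are libraries, and bars give the mean and SD of 3 libraries of a group. Peg10 is high in the EV-proficient paclitaxel and EV-deficient DMSO groups (16.1 to 20.8 CPM) and low in the others (0.966 to 2.25 CPM), and Ndn has no count in any library.

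Expressed as fitted changes, Peg10 was 13.2-fold higher with paclitaxel than with DMSO in EV-proficient cells (log2 3.72 ± 0.21, SE) and 10.9-fold lower with paclitaxel in EV-deficient cells (log2 -3.45 ± 0.19). Between the labels it was 15.3-fold higher in EV-deficient cells under DMSO (log2 3.94 ± 0.21) and 9.4-fold lower in them under paclitaxel (log2 -3.23 ± 0.19). The interaction, which is the log2 effect of paclitaxel in EV-deficient cells minus that in EV-proficient cells, was -7.17 ± 0.28. This was the 11th most negative of the 18108 interactions and the 23rd by size. These are the values by which the gene was chosen, and they rest on the EV labels. If the labels of 1 treatment were exchanged, the same means would pair as 20.2 CPM with DMSO and 17.5 with paclitaxel in one derivative and 1.3 and 1.83 CPM in the other, with a small response to paclitaxel and a small interaction.

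Sgce (ENSMUSG00000004631, chr6:4674350-4747207, minus strand), whose start lies 99 bp from that of Peg10, rose with paclitaxel in cells labelled EV-proficient, and no change was detected in those labelled EV-deficient. It had 0.146, 0.383 and 0.439 CPM in EV-proficient DMSO and 5.22, 6.28 and 6.31 CPM in EV-proficient paclitaxel libraries. In EV-deficient cells it had 1.73, 1.33 and 1.4 CPM with DMSO and 1.17, 2.01 and 1.69 CPM with paclitaxel. The EV-proficient groups did not overlap (as for 62.3% of all tested genes), and the EV-deficient groups did (68.7% of genes did not). The rise in EV-proficient cells was 18.5-fold (log2 4.21 ± 0.31, adjusted p = 2.3e-10, edgeR's quasi-likelihood test adjusted over all genes by the Benjamini-Hochberg method). In EV-deficient cells the log2 change was 0.12 ± 0.26 (adjusted p = 0.71), with a 95% interval of -0.39 to 0.63. Under DMSO, Sgce was higher in EV-deficient cells by 2.22 ± 0.32 on the log2 scale (adjusted p = 2.1e-05), and under paclitaxel it was lower in them (log2 -1.87 ± 0.25, adjusted p = 5.8e-06). Its interaction was -4.09 ± 0.41 (adjusted p = 5.8e-08). With the labels of 1 treatment exchanged, the means would pair as 0.323 CPM with DMSO and 1.63 with paclitaxel in one derivative and 1.49 and 5.93 CPM in the other, higher with paclitaxel in both.

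As Peg10 was chosen by its own group values, its ratio to Sgce is given as a description. Per kb of annotated exon, the ratio of Peg10 to Sgce in a library was 3.5 to 15.1 in EV-proficient DMSO, where Sgce rests on 6 to 16 counts, and 4.08 to 5.4 in EV-proficient paclitaxel libraries. In EV-deficient cells it was 19.1 to 24.0 with DMSO and 0.804 to 3.01 with paclitaxel. The ratio in EV-deficient DMSO libraries lay above, and that in EV-deficient paclitaxel libraries below, every library of the other groups.

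Protein-coding genes farther from Peg10 had smaller fitted interactions than Sgce. Casd1, a sialic acid O-acetyltransferase gene that starts 146.5 kb before Peg10, had an interaction of -0.54 ± 0.15 (adjusted p = 0.0073). Ppp1r9a, which encodes the actin-binding protein neurabin and is imprinted in some tissues, starts 155.6 kb after Peg10 and had an interaction of -0.81 ± 0.17 (adjusted p = 0.00046). Its mean level rose from 9.39 ± 1.94 to 17.1 ± 1.15 CPM with paclitaxel in EV-proficient cells (log2 0.87 ± 0.12, adjusted p = 2.1e-06) and was 13.7 ± 0.532 and 14.3 ± 0.566 CPM in EV-deficient cells. Over all tested genes the interaction passed in 40.7%, as negative in 23.8% and positive in 16.9%.

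Of the other neighbours, Bet1 had an interaction of -0.56 ± 0.16 (adjusted p = 0.0074, or 0.05 without EV-proficient paclitaxel replicate 1). The paraoxonase genes Pon3 and Pon2 had positive interactions of 1.21 ± 0.27 (adjusted p = 0.0012) and 0.35 ± 0.11 (adjusted p = 0.012). Gng11, Col1a2 and Asb4 did not pass the threshold for the interaction, with adjusted p-values of 0.71, 0.69 and 0.62. Pon1 had at most 6 counts in a library and was not tested. Gng11 nevertheless rose with paclitaxel under both labels, by 2.16 ± 0.45 (adjusted p = 0.00032) and 2.51 ± 0.43 (adjusted p = 2.7e-05) on the log2 scale.

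**Figure D2:**
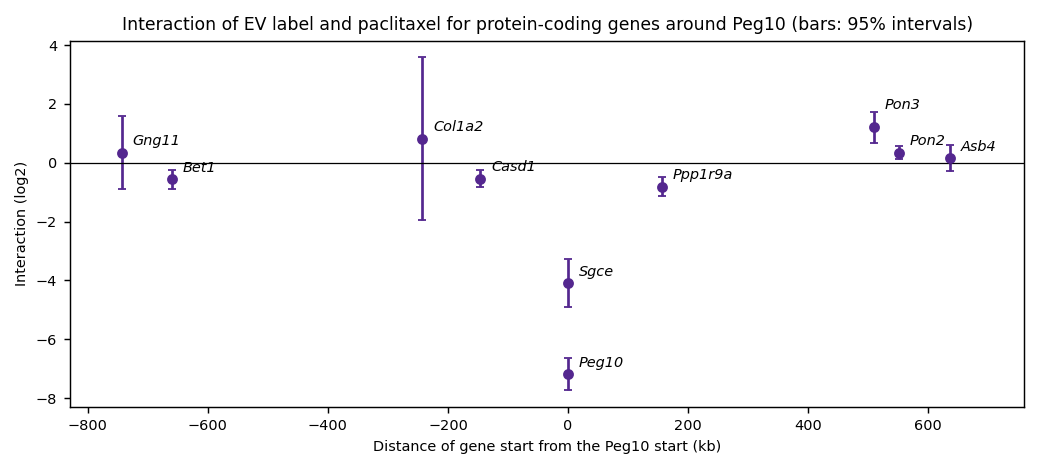
Interaction of EV label and paclitaxel on the log2 scale (vertical axis) against the distance of each gene's start from that of Peg10 in kb (horizontal axis), for the tested protein-coding genes among the 5 on each side. Points are fitted values and bars are 95% intervals. Peg10 at -7.17 and Sgce at -4.09 lie apart from the other genes, whose fitted values run from -0.81 to 1.21; the interval of Col1a2 is wide because it had at most 18 counts in a library.

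The genes whose log2 CPM followed that of Peg10 most closely over the 12 libraries were Klf4 (Pearson's r = 0.99), Gpc6 (0.982), Tenm4 (0.982), Sh3gl2 (0.981) and Plac8 (0.98), among 9891 genes with a mean of at least 5 CPM. The choice of these 5 depends on the measure, since 1 of them remained with Spearman's correlation and 2 with a minimum of 1 CPM. The libraries form 4 groups in which Peg10 takes a high or a low level, so such values describe a shared high-low order and carry no p. In all, 127 of the 9891 genes had an r of at least 0.9. Plac8, a gene named for its expression in placenta, had 3.6 ± 0.278 CPM with DMSO and 51.0 ± 3.0 with paclitaxel in EV-proficient cells, and 62.1 ± 6.89 with DMSO and 3.42 ± 0.124 with paclitaxel in EV-deficient cells. Klf4, an epithelial transcription factor gene, varied over a narrower range, from 32.2 ± 0.855 to 56.8 ± 2.22 CPM. None of these 5 genes lies on the chromosome of Peg10.

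Among the imprinted genes, r with Peg10 was 0.67 for Sgce, 0.33 for H19, -0.13 for Plagl1, -0.25 for Grb10, -0.48 for Peg3 and -0.77 for Mest.

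H19 (ENSMUSG00000000031, chr7:142575529-142578143, minus strand) rose with paclitaxel under both labels. It had 0.122, 0.239 and 0.234 CPM in EV-proficient DMSO libraries, from 5, 10 and 8 counts, and 7.33, 7.14 and 6.19 CPM in EV-proficient paclitaxel libraries. In EV-deficient cells it had 0.767, 0.584 and 0.746 CPM with DMSO and 4.47, 5.04 and 2.9 CPM with paclitaxel. No group overlapped another, also between the labels, where 43.3% of all tested genes did not overlap under DMSO and 44.0% under paclitaxel. The rise was 34.6-fold in EV-proficient cells (log2 5.11 ± 0.29, adjusted p = 5.5e-12) and 5.87-fold in EV-deficient cells (log2 2.55 ± 0.24, adjusted p = 5.3e-09). The rises differed between the labels (interaction -2.56 ± 0.40, adjusted p = 2.2e-05). Between labels, H19 was 3.52-fold higher in EV-deficient cells under DMSO (log2 1.82 ± 0.34, adjusted p = 0.00039) and 1.67-fold lower in them under paclitaxel (log2 -0.74 ± 0.21, adjusted p = 0.0068).

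H19 is also the precursor of a microRNA, whose mature products RefSeq places inside the gene on GRCm38.p6. They are shown because H19 had the largest rise among the tested genes of the 9, although mature microRNAs were not measured in these libraries. Capitals mark the seed, bases 2 to 8.
mmu-miR-675-5p: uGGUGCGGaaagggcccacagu
mmu-miR-675-3p: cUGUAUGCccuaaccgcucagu

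Igf2, the neighbour of H19, was close to the limit of detection. Its nearest end is 72623 bp from H19. In EV-proficient cells it had 0, 0 and 0 counts with DMSO and 10, 9 and 2 with paclitaxel, and in EV-deficient cells 1, 0 and 2 counts with DMSO and 3, 1 and 3 with paclitaxel. With 31 counts in all, Igf2 did not pass the filter on low counts, and no test or fold is given. The highest value was 0.198 CPM, in an EV-proficient paclitaxel library, the group in which H19 was highest as well. Of the other imprinted growth regulators, Cdkn1c, a maternally expressed cell cycle inhibitor, rose with paclitaxel under both labels, from 0.402 ± 0.12 to 2.06 ± 0.044 CPM in EV-proficient cells (log2 2.33 ± 0.29, adjusted p = 4.8e-07) and from 0.659 ± 0.102 to 2.55 ± 0.323 CPM in EV-deficient cells (log2 1.95 ± 0.26, adjusted p = 1.3e-06). Cdkn1c was singled out after its values were seen.

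Peg3 (ENSMUSG00000002265, chr7:6703892-6730431, minus strand), a paternally expressed zinc finger protein gene, was the most abundant of the 9 genes in CPM and rose with paclitaxel in EV-deficient cells. It had 42.1, 34.4 and 34.2 CPM in EV-proficient DMSO and 41.2, 40.3 and 39.7 CPM in EV-proficient paclitaxel libraries. In EV-deficient cells it had 30.2, 34.9 and 34.3 CPM with DMSO and 63.4, 64.8 and 71.8 CPM with paclitaxel. The EV-deficient paclitaxel libraries stood above all others, which lay between 30.2 and 42.1 CPM. The change in EV-deficient cells was 2.02-fold (log2 1.01 ± 0.08, adjusted p = 8.6e-10), and that in EV-proficient cells was 0.13 ± 0.08 on the log2 scale (adjusted p = 0.2). Without EV-proficient DMSO replicate 1, which had the 42.1 CPM, the latter was 0.24 (adjusted p = 0.023). The interaction was 0.88 ± 0.12 (adjusted p = 4e-06), of the opposite sign to that of Peg10. Under paclitaxel, Peg3 was 1.65-fold higher in EV-deficient cells (log2 0.72 ± 0.08, adjusted p = 8.3e-07), and under DMSO the difference was -0.16 ± 0.08 (adjusted p = 0.2).

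Peg3 shares its start region with Usp29, a paternally expressed gene transcribed in the other direction from a start 147 bp away. The stretch between the annotated exons of the genes, chr7:6730432-6730577 in RefSeq's GRCm38.p6, is shown on the strand of Peg3 because it serves both genes, and capitals mark the CCAAT box (searched on both strands), which occurs 2 times here in its reverse form.
Peg3 and Usp29: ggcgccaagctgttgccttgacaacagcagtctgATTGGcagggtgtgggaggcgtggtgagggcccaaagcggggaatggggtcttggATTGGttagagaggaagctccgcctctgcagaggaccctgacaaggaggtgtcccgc
CCAAT or its reverse occurs in 37.4% of the 32851 promoter windows of 300 bases in the same table, so its presence here is common. The whole 300-base window of Peg3 also holds TGACGTCA, the cAMP response element, which occurs in 1.79% of windows, and GGGGCCCC, a sequence bound by the PLAGL1 protein, which occurs in 1.08% of windows (each searched on both strands, and neither overlaps CCAAT). These matches are letters in a window and not measured binding sites.

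Usp29 was low, and its changes were uncertain. Its mean was 0.731 ± 0.0583 CPM with DMSO and 1.48 ± 0.77 with paclitaxel in EV-proficient cells, and 0.866 ± 0.148 with DMSO and 1.28 ± 0.336 with paclitaxel in EV-deficient cells. In EV-deficient cells, where Peg3 rose, the log2 change of Usp29 was 0.57 ± 0.34 (adjusted p = 0.15), with a 95% interval of -0.10 to 1.25 that includes the change of Peg3. In EV-proficient cells it was 0.97 ± 0.36 (adjusted p = 0.026), a call lost with limma-voom (0.11) and without EV-proficient DMSO replicate 1 (0.056) or 3 (0.069) or EV-proficient paclitaxel replicate 3 (0.24). Its interaction was -0.39 ± 0.50 (adjusted p = 0.58). The spread between its libraries leaves a 95% interval of -1.37 to 0.58 for that interaction. The interaction of Peg3, 0.88 ± 0.12, lies above this interval, and the difference between the genes was not tested.

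Plagl1 (ENSMUSG00000019817, chr10:13060504-13131694, plus strand), a paternally expressed zinc finger transcription factor gene known for arresting growth, was higher with paclitaxel under both labels. It had 4.14, 4.07 and 4.39 CPM in EV-proficient DMSO and 6.19, 4.83 and 6.43 CPM in EV-proficient paclitaxel libraries. It had 5.5, 5.28 and 5.55 CPM in EV-deficient DMSO and 8.05, 9.39 and 12.7 CPM in EV-deficient paclitaxel libraries. Treated and control libraries did not overlap under either label, as for 62.3% of all tested genes in EV-proficient and 68.7% in EV-deficient cells. The rise was 1.85-fold in EV-deficient cells (log2 0.89 ± 0.16, adjusted p = 4.4e-05) and 1.38-fold in EV-proficient cells (log2 0.46 ± 0.17, adjusted p = 0.022). The latter call was lost with limma-voom (adjusted p = 0.087) and without any of EV-proficient DMSO replicates 1 and 2 (0.054 and 0.065) and EV-proficient paclitaxel replicates 1 and 3 (0.12 and 0.1). The interaction of 0.43 ± 0.23 did not pass the threshold (adjusted p = 0.15), but did without EV-deficient paclitaxel replicate 1 (log2 0.60, adjusted p = 0.041). Between labels, Plagl1 was higher in EV-deficient cells under paclitaxel (log2 0.80 ± 0.16, adjusted p = 0.00042), and the difference under DMSO was 0.37 ± 0.17 (adjusted p = 0.11).

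Mest (ENSMUSG00000051855, chr6:30723547-30748465, plus strand), a paternally expressed gene of the alpha/beta hydrolase family, fell slightly with paclitaxel in EV-proficient cells. It had 2.39, 2.51 and 3.16 CPM in EV-proficient DMSO and 2.0, 1.42 and 1.29 CPM in EV-proficient paclitaxel libraries. It had 1.73, 2.09 and 1.58 CPM in EV-deficient DMSO and 1.71, 2.9 and 3.33 CPM in EV-deficient paclitaxel libraries. The EV-proficient groups did not overlap, and the EV-deficient groups did. The fall in EV-proficient cells was 1.69-fold (log2 -0.75 ± 0.26, adjusted p = 0.017), a call lost without EV-proficient DMSO replicate 3 (adjusted p = 0.076) or EV-proficient paclitaxel replicate 2 (0.05). The change in EV-deficient cells was 0.56 ± 0.25 (adjusted p = 0.059), and passed without EV-deficient paclitaxel replicate 1 (log2 0.78, adjusted p = 0.0094). The interaction was 1.31 ± 0.36 (adjusted p = 0.0059), again opposite in sign to that of Peg10. Under paclitaxel Mest was higher in EV-deficient cells (log2 0.74 ± 0.26, adjusted p = 0.028), a call lost without EV-proficient paclitaxel replicate 2 or 3 (adjusted p = 0.1 and 0.088) or EV-deficient paclitaxel replicate 2 or 3 (0.066 and 0.15). Under DMSO the difference was -0.58 ± 0.26 (adjusted p = 0.12).

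Mest ends inside Copg2, a coat protein gene on the other strand, with 912 bp shared. Copg2 was far more abundant per length (9.92 to 19.9 CPM per kb of exon as group means, against 0.398 to 0.681 for Mest). Whether strand was used in counting is not given in the sources used here, so the part of Copg2 reads in the values of Mest was not tested. Copg2 rose with paclitaxel under both labels (log2 1.00 ± 0.07, adjusted p = 1.2e-10, and 0.65 ± 0.07, adjusted p = 4.7e-08), while Mest had log2 changes of -0.75 in EV-proficient and 0.56 in EV-deficient cells. An intron of Mest holds another microRNA gene, whose products were not measured in these libraries either and are shown as the other RNA made from this locus, with the seed in capitals.
mmu-miR-335-5p: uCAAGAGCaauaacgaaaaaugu
mmu-miR-335-3p: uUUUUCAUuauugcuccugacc
None of the 4 seeds printed here is shared by another of them.

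Grb10 (ENSMUSG00000020176, chr11:11930508-12038683, minus strand), which encodes an adaptor that restrains insulin receptor signalling and is expressed from different parental copies in different tissues, passed the threshold in no comparison. In EV-proficient cells it had 0.926, 1.01 and 0.995 CPM with DMSO and 1.01, 0.668 and 0.931 CPM with paclitaxel. In EV-deficient cells it had 1.03, 0.98 and 1.01 CPM with DMSO and 0.95, 0.973 and 1.43 CPM with paclitaxel. All 4 groups overlapped around 1 CPM. The 95% interval of its log2 change with paclitaxel was -0.78 to 0.42 in EV-proficient and -0.42 to 0.72 in EV-deficient cells. These intervals leave out changes of the size seen for H19. Ndn, a paternally expressed growth suppressor gene of neurons, had 0 counts in each library, which allows up to 0.0492 to 0.121 CPM (3 counts, counting error only).

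Levels can be set against each other only per length. Per kb of exon, Peg3 was the highest of the 9 genes in EV-proficient DMSO (2.77 ± 0.337 CPM per kb) and EV-deficient paclitaxel libraries (5.0 ± 0.338). In EV-deficient DMSO libraries Peg10 was the highest at 3.03 ± 0.0707 CPM per kb, with Peg3 next at 2.48 ± 0.193. In EV-proficient paclitaxel libraries Peg3 (3.03 ± 0.0553), H19 (2.8 ± 0.248) and Peg10 (2.62 ± 0.195) were close, and the libraries of H19 and Peg10 overlapped. Sgce, Mest, Plagl1 and Grb10 were at or below 1.29 CPM per kb in every group mean.

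**Figure D3:**
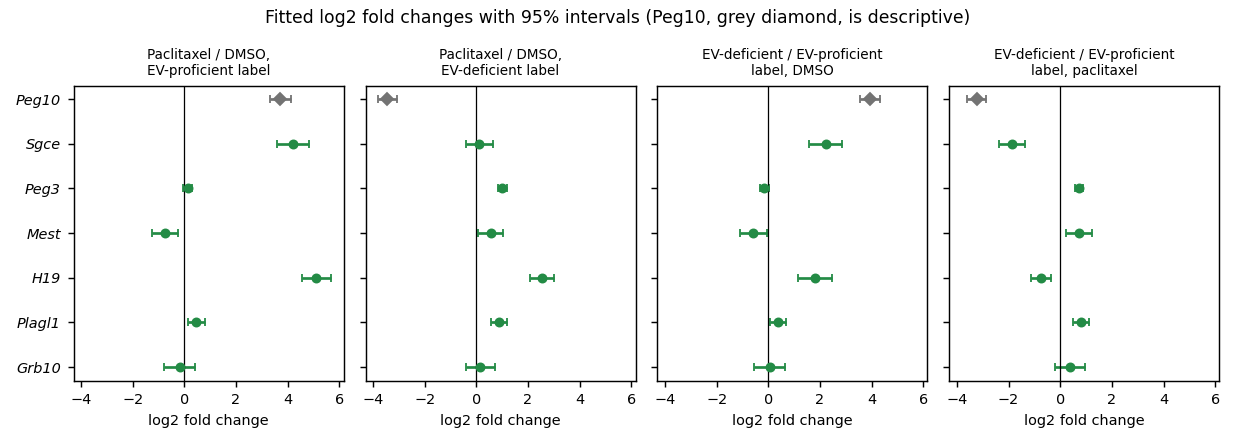
Fitted log2 fold changes (horizontal axes) of the 7 tested genes in the 4 comparisons between groups, with bars for 95% intervals. Green circles are tested genes and the grey diamond is Peg10, which is descriptive. H19 is above 0 in both paclitaxel comparisons (5.11 and 2.55), Sgce in 1 of them (4.21), and Grb10 crosses 0 in all 4.

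Counted over the 8 genes other than Peg10, of which 6 were tested, paclitaxel raised 3 (Sgce, H19 and Plagl1) and lowered 1 (Mest) in EV-proficient cells, where 58.2% of all tested genes passed the threshold (31.1% higher and 27.1% lower). In EV-deficient cells it raised 3 (Peg3, H19 and Plagl1) and lowered 0, against 62.9% of all genes (32.4% higher and 30.5% lower). Between the labels, 2 (Sgce and H19) were higher in EV-deficient cells under DMSO and 0 lower, against 23.0% of all genes (12.4% higher and 10.6% lower). Under paclitaxel 3 (Peg3, Mest and Plagl1) were higher and 2 (Sgce and H19) lower, against 37.8% (16.0% higher and 21.8% lower). The interaction passed in 4 of the 6, positive in Peg3 and Mest and negative in Sgce and H19, against 40.7% of all genes (16.9% positive and 23.8% negative). With so many genes called in all, these counts say little about imprinted genes as a class. The direction of calls over all genes moved with the scaling: with upper-quartile scaling the higher share of calls was 63.4% instead of 51.5% for paclitaxel in EV-deficient cells, 58.2% instead of 42.4% between labels under paclitaxel and 53.9% instead of 41.4% for the interaction. The median log2 value of all genes moved from 0.07 to 0.26 for paclitaxel in EV-deficient cells and from -0.04 to 0.08 for the interaction, so the change of 0.12 for Sgce in EV-deficient cells is within that shift.

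**Figure D4:**
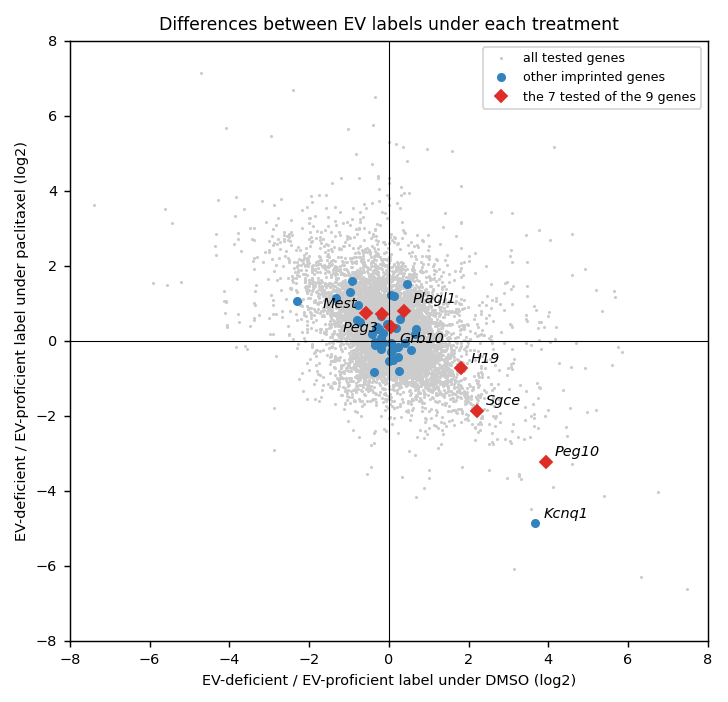
Log2 difference between EV-deficient and EV-proficient cells under DMSO (horizontal axis) and under paclitaxel (vertical axis). Grey points are all 18108 tested genes, blue circles other imprinted genes and red diamonds the 7 tested of the 9 genes. Peg10, Sgce, H19 and Kcnq1 lie at the lower right, with higher levels in EV-deficient cells under DMSO and lower levels under paclitaxel, a quadrant pair with opposite signs that holds 67.0% of all genes together with the upper left.

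Other imprinted genes were taken from lists of known imprinted genes, chosen with results of these data known. The parental copy that gave the reads was not measured for any gene. Paternally and maternally expressed are therefore names from the lists, and whether a gene is imprinted in these cells was not tested. Of 29 further names of paternally expressed genes (2 of them for the same gene), 13 were tested. The interaction passed as positive in 7 and negative in 1 (61.5% called, against 40.7% of all genes, 16.9% positive and 23.8% negative), with a median of 0.63 against -0.04 over all genes. Peg12, which encodes a relative of the GSK3-binding protein FRAT, fell with paclitaxel in EV-proficient cells from 6.61 ± 1.31 to 1.36 ± 0.315 CPM (log2 -2.27 ± 0.22, adjusted p = 1.2e-08) and was 2.63 ± 0.517 and 3.01 ± 0.0397 CPM in EV-deficient cells. Its interaction was 2.47 ± 0.30 (adjusted p = 9e-07). Sfmbt2, a polycomb gene needed in the placenta, rose in EV-deficient cells from 1.02 ± 0.131 to 7.65 ± 0.269 CPM (log2 2.90 ± 0.23, adjusted p = 3.4e-10), with an interaction of 2.27 ± 0.31 (adjusted p = 5.3e-06). In EV-proficient cells it had 2.01 ± 0.259 and 3.03 ± 1.05 CPM (log2 0.63 ± 0.22, adjusted p = 0.019), a call lost without EV-proficient DMSO replicate 2 (0.085) or EV-proficient paclitaxel replicate 1 or 2 (0.13 and 0.16). Mkrn3, a ubiquitin ligase gene, had an interaction of 1.34 ± 0.43 (adjusted p = 0.017). That call was lost with no low-count filter (adjusted p = 0.056) and without EV-deficient DMSO replicate 1 (0.06). The noncoding RNA Kcnq1ot1 had an interaction of 1.07 ± 0.38 (adjusted p = 0.028). That call was lost with DESeq2 (0.074), with limma-voom (0.088), without replicate 1 of EV-proficient DMSO (0.14), EV-proficient paclitaxel (0.05) or EV-deficient DMSO (0.081), and without EV-deficient paclitaxel replicate 3 (0.11). The 4 paternally expressed genes named here thus had interactions of the same sign as Peg3 and Mest, and the opposite sign to Peg10 and Sgce.

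Of 40 further maternally expressed genes, 27 were tested, and the interaction passed as positive in 9 and negative in 9 (66.7% called, against 40.7% of all genes), with a median of 0.09 against -0.04. Kcnq1, a potassium channel gene, was higher with paclitaxel in EV-proficient cells and lower with it in EV-deficient cells, as Peg10 was, but its highest group was a different one, with 0.0969 ± 0.0975 CPM with DMSO and 6.84 ± 0.255 with paclitaxel in EV-proficient cells, and 1.32 ± 0.172 with DMSO and 0.231 ± 0.104 with paclitaxel in EV-deficient cells. Its interaction was -8.54 ± 0.56 (adjusted p = 9.2e-11), and its size is uncertain because the EV-proficient DMSO libraries had only 8, 4 and 0 counts. Kcnq1 overlaps the antisense RNA Kcnq1ot1, and without a stated strand setting their reads cannot be told apart with certainty. Ampd3, an AMP deaminase gene, rose in EV-deficient cells from 10.9 ± 1.02 to 40.6 ± 5.0 CPM (log2 1.90 ± 0.10, adjusted p = 7.9e-13), with an interaction of 1.72 ± 0.14 (adjusted p = 2.8e-09). Phlda2, which restrains growth of the placenta, fell in EV-deficient cells from 38.6 ± 1.5 to 18.3 ± 1.14 CPM (log2 -1.08 ± 0.09, adjusted p = 1.8e-09), with an interaction of -1.06 ± 0.13 (adjusted p = 1.3e-06).

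**Figure D5:**
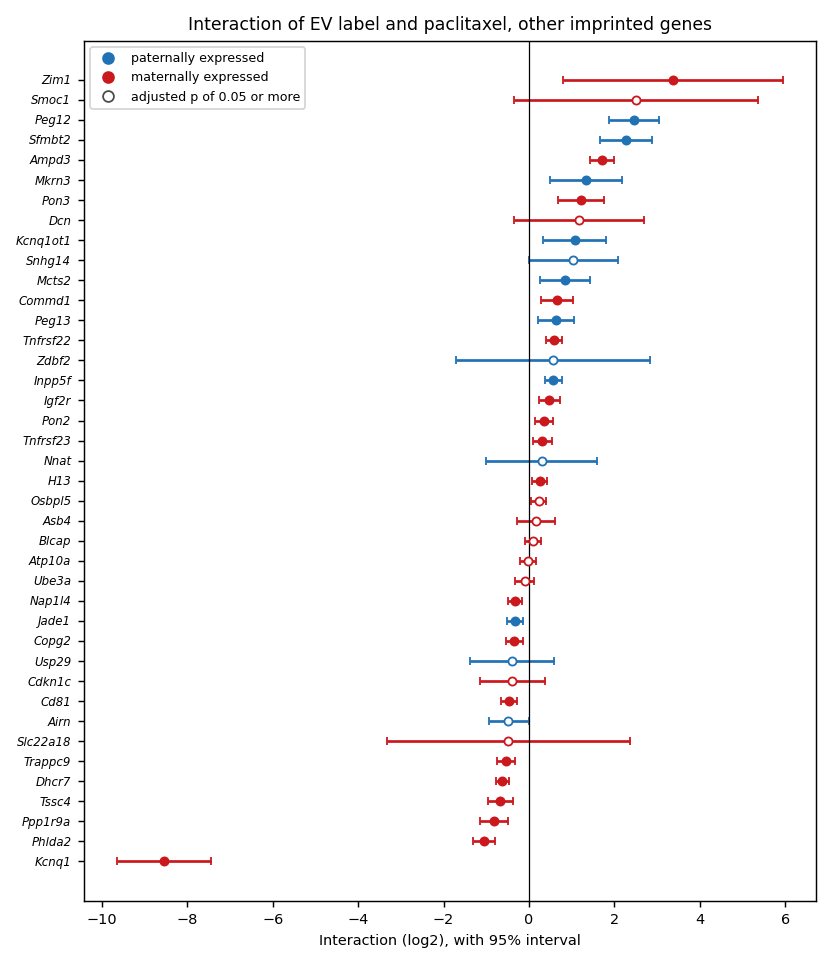
Interaction of EV label and paclitaxel on the log2 scale (horizontal axis) with 95% intervals for the other tested imprinted genes (13 paternally and 27 maternally expressed), ordered by value. Filled circles passed the threshold and open circles did not. Most values lie within a few units of 0, and Kcnq1 at -8.54 stands apart.

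Genes that, like Peg10, derive from retrotransposon Gag sequences or belong to related families were listed under 22 names, of which 14 were tested. Cxx1a (now Rtl8a) and Cxx1b (now Rtl8b) had the same total of 539 counts and are counted as separate genes. Whether they share reads was not tested. In EV-proficient cells 4 rose and 4 fell with paclitaxel (31.1% and 27.1% of all genes did), with a median of 0.45 against 0.05 over all genes. In EV-deficient cells 8 rose and 2 fell (32.4% and 30.5% of all genes did), with a median of 1.16 against 0.07. The interaction passed as positive in 5 and negative in 4 (64.3% called, against 40.7% of all genes, 16.9% positive and 23.8% negative), with a median of 0.64 against -0.04. Asprv1, a retroviral-like aspartic protease gene of the epidermis, rose with paclitaxel in EV-proficient cells from 0.543 ± 0.19 to 8.66 ± 1.42 CPM (log2 4.02 ± 0.29, adjusted p = 1.8e-10) and had an interaction of -3.38 ± 0.39 (adjusted p = 4.8e-07). Its EV-deficient values were 1.35 ± 0.297 and 2.12 ± 0.774 CPM (log2 0.64 ± 0.26, adjusted p = 0.037), a call lost with limma-voom (0.1), on only the groups compared (0.067), and without EV-proficient paclitaxel replicate 1 or 2 (0.054 and 0.052), EV-deficient DMSO replicate 2 or 3 (0.059 and 0.18) or EV-deficient paclitaxel replicate 2 (0.29). Zcchc12, a gene of the paraneoplastic antigen family, rose there from 0.249 ± 0.187 (19, 7 and 4 counts) to 3.56 ± 0.396 CPM (log2 3.79 ± 0.39, adjusted p = 3e-08), with 1.01 ± 0.178 and 1.24 ± 0.423 CPM in EV-deficient cells and an interaction of -3.49 ± 0.51 (adjusted p = 1.1e-05). Both were highest in EV-proficient paclitaxel libraries, as Sgce was. Rgag4 (now Rtl5) rose in EV-deficient cells from 0.359 ± 0.0859 to 2.73 ± 0.765 CPM (log2 2.92 ± 0.32, adjusted p = 7e-08, interaction 1.57 ± 0.46, adjusted p = 0.0085) and also in EV-proficient cells (log2 1.35 ± 0.32, adjusted p = 0.0011). Gm16314 (now Rtl10) fell in EV-deficient cells from 3.11 ± 0.341 to 0.428 ± 0.253 CPM (log2 -2.84 ± 0.32, adjusted p = 1e-07, interaction -1.96 ± 0.43, adjusted p = 0.00096). It fell in EV-proficient cells as well (log2 -0.88 ± 0.30, adjusted p = 0.015), a call lost without EV-proficient DMSO replicate 1 or 2 (0.055 and 0.051) or EV-proficient paclitaxel replicate 1 (0.057).

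Genes of DNA methylation and of imprint maintenance mostly fell with paclitaxel. Of 23 listed, 20 were tested. In EV-proficient cells 11 fell and 6 rose (27.1% and 31.1% of all genes did), with a median of -0.22 against 0.05 over all genes. In EV-deficient cells 13 fell and 3 rose (30.5% and 32.4% of all genes did), with a median of -0.46 against 0.07. The interaction was negative in 12 and positive in 1 (23.8% and 16.9% of all genes), with a median of -0.35 against -0.04. Dnmt1, the maintenance methyltransferase that copies methylation at replication, had 328.0 ± 6.87 CPM with DMSO and 211.0 ± 8.96 with paclitaxel in EV-proficient cells, and 382.0 ± 5.88 and 148.0 ± 20.0 in EV-deficient cells. Its log2 changes were -0.64 ± 0.07 (adjusted p = 1.5e-07) and -1.37 ± 0.07 (adjusted p = 1e-12), with an interaction of -0.73 ± 0.10 (adjusted p = 6.2e-06). Hells, a chromatin remodeller that aids methylation, and Trim28, a corepressor that protects imprints, had interactions of -0.71 ± 0.14 (adjusted p = 0.00035) and -0.67 ± 0.08 (adjusted p = 1e-06). Tet1, which oxidises methylated cytosine, differed from these: it rose in EV-proficient cells from 0.139 ± 0.0946 (8, 8 and 1 counts) to 2.69 ± 0.307 CPM (log2 4.20 ± 0.44, adjusted p = 4.4e-08) and fell in EV-deficient cells from 1.27 ± 0.221 to 0.574 ± 0.24 CPM (log2 -1.15 ± 0.36, adjusted p = 0.0084). The interaction of Tet1 was -5.35 ± 0.57 (adjusted p = 1.7e-07), and it shared with Peg10 the rise in EV-proficient and the fall in EV-deficient cells. Methylation itself was not measured.

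Of 13 genes listed for IGF2 binding and insulin or IGF receptor signalling, the pathway on which Igf2 and Grb10 act, 11 were tested. The list also held the RNA-binding or chromatin protein genes Igf2bp1, Igf2bp2, Igf2bp3, Hmga2 and Lin28b, all of them tested. The interaction passed as positive in 4 and negative in 3 (63.6% called, against 40.7% of all genes, 16.9% positive and 23.8% negative), with a median of -0.19 against -0.04. The receptor adaptor Irs1 fell in EV-proficient cells from 35.3 ± 2.67 to 18.7 ± 2.45 CPM (log2 -0.90 ± 0.10, adjusted p = 1.3e-07) and rose in EV-deficient cells from 18.0 ± 0.84 to 31.4 ± 3.92 CPM (log2 0.80 ± 0.10, adjusted p = 5e-07), with an interaction of 1.70 ± 0.14 (adjusted p = 4.8e-09). The interaction of its relative Irs2 was negative (-0.82 ± 0.10, adjusted p = 1.1e-06), and those of Grb14, a relative of Grb10, and Igf2bp1, which binds Igf2 messenger RNA, were 0.60 ± 0.12 (adjusted p = 0.00025) and 0.56 ± 0.10 (adjusted p = 0.00016). Igf2r, the imprinted receptor that clears IGF2 and a gene named outside the rule, had values between 162.0 ± 16.6 and 221.0 ± 21.0 CPM as group means, with an interaction of 0.48 ± 0.12 (adjusted p = 0.0034).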

How the data were processed

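For 12 libraries of stranded polyadenylated RNA, the authors deposited raw read counts by gene in 1 table. STAR 2.5.0a and GRCm38 are named, without a role, per the submitters' processing notes, and the counting program, annotation release and strand setting are not given in the sources used here. The table had 0 columns of other samples. The 2 rows added by the authors (gfp, with 0 counts, and dngfr) were left out of library sizes and tests, and genes lacking a symbol took up to 0.102% of a library's counts.

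Genes were filtered with filterByExpr (minimum count 10) and scaled by TMM (factors 0.8904 to 1.146), and a quasi-likelihood model of the 4 group means was fitted to all 12 libraries with edgeR 4.0.16 in R 4.3.3 (common dispersion 0.00956, threshold 0.05 on p-values adjusted by Benjamini-Hochberg over 18108 genes). Intervals of 95% are the estimate with its SE times the normal quantile. Scripts were tested on simulated data. Alternatives used DESeq2 1.42.0 and limma 3.58.1, other scalings and filters, a replicate block, fewer groups and each library left out. Replicates of a group differed by more than sampling noise (chi-square per degree of freedom 4.2 to 27.8 over 12 pairs). The floor is 3 counts (0.0492 to 0.121 CPM), and it and all counts cover counting error only, since reads carry no molecular identifiers. Likeness was measured on log2 CPM (prior count 2).

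Gene positions and exon lengths come from GENCODE on GRCm38, and printed sequences from RefSeq on GRCm38.p6. Of the 9 genes, 6 had promoter windows, and Peg10, Sgce and H19 were not among them. The genes, lists and naming rule were chosen with earlier results of these data known. Named were the 9 genes, at most 4 per list by size of interaction among called genes that averaged 1 CPM or more, the 5 protein-coding genes on each side of Peg10 and the 5 genes most like it. Usp29, Copg2, Cdkn1c and Igf2r were added outside this rule, as partners of the 9 genes or after their values were seen.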

Additional observations from a re-analysis of the deposited data

Results flagged for a closer look

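The effect of paclitaxel differed between the EV labels, by the interaction term on the log2 scale, in Sgce (-4.09), H19 (-2.56), Peg3 (0.88) and Mest (1.31). In Sgce and H19 the effect was lower in EV-deficient cells, and in Peg3 and Mest it was higher there. The row that the authors added for a dngfr sequence, outside the gene comparisons, held counts in all groups, with mean values of 8.99 CPM with DMSO and 3.24 with paclitaxel in EV-proficient cells, and 2.15 with DMSO and 10.9 with paclitaxel in EV-deficient cells. The lowest library of each high group (5.72 and 9.62 CPM) lay above the highest of each low group (3.76 and 2.54 CPM), which is the order of Peg10 turned around. The part of the labels or of the construct in these patterns was not tested.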

How the results depend on the processing

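The counts of called genes among the 6 tested other than Peg10 stayed within 1.5 times under all alternatives but 1: fitted on only the groups compared, 4 instead of 2 differed between labels under DMSO, Mest and Plagl1 being added. With 1 library left out, the counts were 3 to 4 (paclitaxel, EV-proficient), 3 to 4 (paclitaxel, EV-deficient), 2 (labels, DMSO), 4 to 5 (labels, paclitaxel) and 4 to 5 (interaction). Calls of Mest and Plagl1 changed with single libraries, as given beside them. For Mest they also changed for paclitaxel in EV-deficient cells, which passed with upper-quartile scaling, a filter of 1 CPM and DESeq2 (log2 0.74, 0.62 and 0.58), and between labels under paclitaxel, lost with limma-voom and on only the groups compared (log2 0.68 and 0.77). No call of Sgce or H19 changed, and the log2 values of Peg10 kept their sign throughout.

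Signs turned only where values were near 0 or uncertain. With 1 library left out, paclitaxel in EV-deficient cells gave -0.05 to 0.29 for Sgce (below 0 without EV-deficient paclitaxel replicate 2), -0.07 to 0.25 for Grb10 (replicate 3), -0.08 to 0.01 for Grb14 (above 0 without replicate 3) and -0.16 to 0.01 for Pon2 (replicate 2). Phlda2 in EV-proficient cells ranged from -0.12 to 0.09 (above 0 without EV-proficient DMSO replicate 3). Interactions ranged from -0.15 to 0.87 for Gng11 and -0.47 to 1.59 for Col1a2 (below 0 without EV-proficient DMSO replicates 3 and 2) and from -0.63 to 0.08 for Usp29 (above 0 without EV-proficient paclitaxel replicate 3). Upper-quartile scaling gave 0.05 for Phlda2, 0.15 for Grb14 and 0.1 for Pon2, no filter gave 0.01 for Phlda2, the 1 CPM filter gave 0.03 for Grb14, and limma-voom gave -0.26 for Gng11. The cause was not tested. Of the 5 genes most like Peg10, 1 remained with Spearman's correlation and 2 with the 1 CPM minimum.

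Same-numbered replicates did not deviate together (r from -0.0812 to 0.097 over 18 pairs, and 4 of 12 libraries correlated best with their own number). A pairing by number was thus not seen in the counts. Shared cultures or days with little effect on the counts would not show in this way, and the labels do not state a pairing. With the replicate block the counts of calls were 4, 3, 2, 5 and 4, as without it. Depth limits Igf2, Ndn and the levels of Sgce, H19, Kcnq1, Tet1 and Zcchc12 in EV-proficient DMSO libraries, which rest on few counts.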
